A study of Homo sapiens with 2 samples.

Results

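The genes examined here carry iron into cells, store it, release it and sense it: TFRC, TFR2, SLC11A2, SLC40A1, FTL, FTH1, ACO1, IREB2, FBXL5 and NCOA4. Members were the probe sets that the platform annotation assigns to 1 of these 10 genes alone. This gave 22 of the 54613 probe sets on the array, for 8 of the 19775 genes with such a probe set. FTH1, the ferritin heavy chain, and IREB2, an iron sensor, were paired with no probe set alone in the annotation used and were not analysed here. The study compared transcript levels between 2 samples that the labels call HL60, a human line derived from promyelocytic leukaemia, to find genes whose expression differs under eltrombopag. The first sample was left untreated. The other was given eltrombopag, a small-molecule thrombopoietin receptor agonist that also binds iron, at 3 µg/ml for 36 h. The labels place both in RPMI with 10% serum and name no vehicle for the untreated cells and no time at which they were collected. With 1 array per sample and 1 sample per group, every difference below is between 2 arrays, has no replicate check and carries no p-value, and the drug and any other difference between the cultures cannot be told apart. Plasma cell genes were readable in both samples, 12 of the 13 listed, which goes against the label. Promyelocyte markers, which go with the label, were also readable in both, 10 of the 14 on the array. The identity of the cultures was not tested, and each ratio describes the samples as labelled.

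Cells balance iron largely after transcription. When iron is scarce, the iron regulatory proteins, encoded by ACO1 and IREB2, bind hairpins in messenger RNA called iron-responsive elements. Binding to the hairpins in the 3′ untranslated region of TFRC slows decay of that transcript, so its level goes up, whereas binding to a hairpin near the 5′ end of FTL, FTH1 and SLC40A1 blocks translation and need not alter the transcript level. SLC11A2 carries an element in the 3′ region of only some of its splice forms. FBXL5 marks the iron regulatory proteins for degradation when iron is plentiful, and NCOA4 delivers ferritin to lysosomes for breakdown. An expression array reads transcript level and not translation.

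A pair of sequences shows where the known and candidate regulatory letters lie. Both come from the RefSeq promoter table of GRCh38.p14, which covers 250 bases before and 50 after each transcript start and held 13 windows for 8 of the 10 genes; TFR2 and FTH1 had none. The FTL stretch is bases 21 to 50 of the transcript, at chr19:48965329-48965358 on the plus strand, and is shown because it holds the loop of the 5′ iron-responsive element, with the 6-base loop in capitals. The TFRC stretch is the 120 bases before the transcript start, at chr3:196082091-196082210 on the minus strand, and is shown because TFRC alone among the members passed 2-fold. Its capitals mark ACGTG, the core letters bound by hypoxia-inducible factors, starting 88 bases before the transcript start.
FTL: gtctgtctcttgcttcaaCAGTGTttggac
TFRC: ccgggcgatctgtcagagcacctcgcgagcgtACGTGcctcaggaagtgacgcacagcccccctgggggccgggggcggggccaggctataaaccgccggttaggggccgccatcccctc

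The hairpin pattern searched was a C, 5 bases, the loop CAGTGN and 5 bases that pair with the 5 before the loop, with G to T pairs allowed. It occurred on the transcript strand in 37 of 35116 windows (0.105%) and on the opposite strand in 39 (0.111%). FTL was the only member with a match on either strand. The windows end 50 bases into the transcript, so no match does not mean no element further in, for SLC40A1 among others. FTH1 had no window to search. ALAS2, the erythroid heme synthesis enzyme known for its own 5′ element, was among the other matches. ACGTG occurred on either strand in 7518 of 35116 windows (21.4%) and in windows of 3 members, TFRC, FTL and FBXL5. A match describes letters only, and the TFRC hairpins lie outside these windows.

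Signals are MAS5 values, which give the brightness of each probe set on a linear scale. A probe set is called readable in a sample where its signal reached a floor of 56.9, the 60th percentile over both arrays; dimmer signals were set to that floor when ratios were taken. Ratios are eltrombopag over untreated, on the log2 scale. Of the 22 member probe sets, 14 were readable in both samples, 2 in the untreated sample alone and 6 in neither. The suffix _x_at marks probe sets whose probes may bind other transcripts, and _s_at those shared by several transcripts, usually of 1 gene. Signals of different probe sets are not compared with each other, since each binds with its own strength.

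TFRC, the main receptor for iron-loaded transferrin, stood out among the members. The brightest TFRC probe set, 208691_at, read 2517 untreated and 8162 with eltrombopag. A second, 207332_s_at, read 780.8 and 1646. Both were higher in the eltrombopag sample, by 3.24-fold (log2 ratio 1.70) and 2.11-fold (log2 ratio 1.08). The third, 237215_s_at, went the other way, from 96.7 to 47.4, which is below the floor, so it was at least 1.70-fold lower. The last pair lay below the floor in both samples, 237214_at at 8.83 and 13.5 and 240686_x_at at 5.20 and 15.3. The 5 TFRC probe sets therefore do not give 1 answer: the pair with signal well above the floor was higher, 1 dim probe set was lower, and the others had no usable signal. Averaged over the 3 with signal above the floor in a sample, the TFRC log2 ratio was 0.67, below 2-fold.

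Among all 20698 probe sets readable in both samples, 208691_at had the 19th highest log2 ratio and 207332_s_at the 102nd. Of the 2849 probe sets with a signal of at least 1000 in both samples, 208691_at had the highest ratio, and only 2 of them (0.0702%) were at least 2-fold higher, against 13 (0.456%) at least 2-fold lower. The other higher one was that of MSMO1, a sterol synthesis enzyme. By the closest log2 ratio over these 2 samples, in genes whose brightest probe set read at least 1000 in both, the nearest to TFRC were MSMO1 at 1.57, HSP90B1 at 0.94 and HSPA5, both endoplasmic reticulum chaperones, at 0.78. Only MSMO1 lay close; the next differed from TFRC by 0.75.

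**Figure D1:**
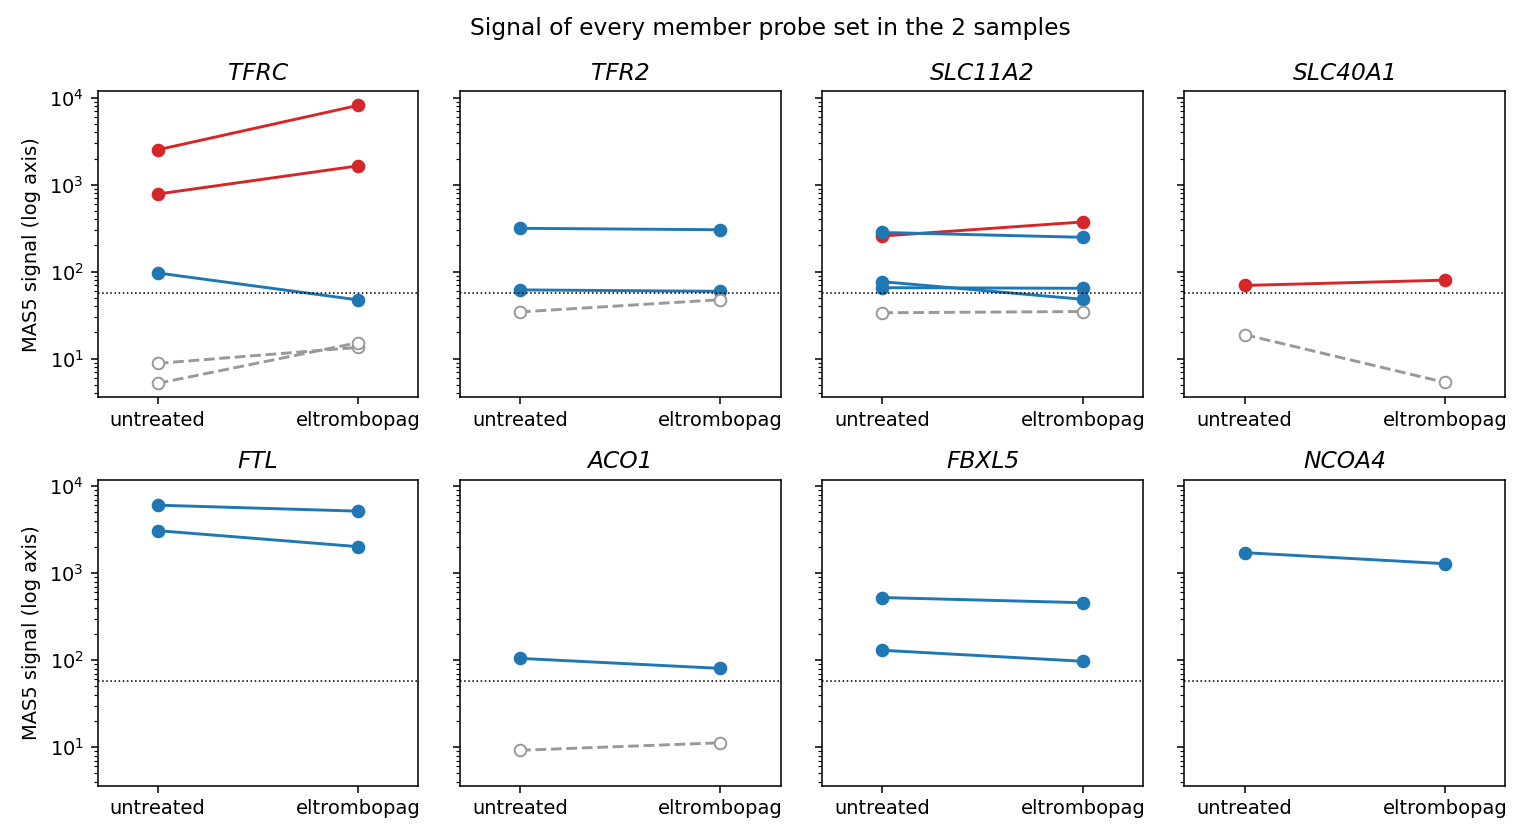
Signal of all 22 member probe sets in the untreated and eltrombopag samples, on a log axis, 1 panel per gene and 1 line per probe set. Red lines are higher and blue lines lower with eltrombopag, grey dashed lines lie below the floor of 56.9 (dotted) in both samples, and the steepest bright lines are those of TFRC, from 2517 to 8162 and from 780.8 to 1646.

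TFR2, the second transferrin receptor, best known from liver and erythroid cells, had nearly equal signals in the samples. Probe set 210215_at read 315.2 untreated and 303.4 with eltrombopag, and 215863_at read 61.8 and 59.4. Both had a log2 ratio of -0.06, which became 0.00 to 0.08 when the arrays were rescaled, so TFR2 has no settled direction. The third TFR2 probe set, 207883_s_at, lay below the floor at 34.5 and 47.7. Of the receptors, then, only TFRC differed by 2-fold.

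SLC11A2, the transporter DMT1 that moves iron out of endosomes, gave different answers by probe set. Probe set 203124_s_at went from 257.1 to 372.9, a log2 ratio of 0.54. Probe set 203123_s_at went from 282.4 to 248.5, a log2 ratio of -0.18. The dim 203125_x_at was level at 65.5 and 64.4, with a log2 ratio of -0.02 that turned to 0.04 to 0.11 under the other scalings. Probe set 210047_at went from 76.8 to 48.2, at least 1.35-fold lower, and 237106_at lay below the floor at 33.7 and 34.8. Log2 ratios of the 3 SLC11A2 probe sets readable in both samples spanned 0.72, more than in 87.2% of the 4374 genes with at least 2 such probe sets, where the median range was 0.31. For the 2 TFRC probe sets the range was 0.62, more than in 81.9% of these genes. It was 0.38 for FTL and 0.22 for FBXL5. A range tends to widen with the number of probe sets, for which the comparison makes no allowance. Which SLC11A2 splice form each probe set reads, with or without the iron-responsive element, is not given in the tables used here.

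SLC40A1, ferroportin, the exporter of iron, was dim. Probe set 233123_at read 69.5 untreated and 79.9 with eltrombopag, a log2 ratio of 0.20. The other, 223044_at, read 18.9 and 5.33, below the floor in both. The readable SLC40A1 probe set was thus slightly higher with eltrombopag, at 0.20 to 0.34 over the 4 scalings, and the other has no direction.

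FTL, the ferritin light chain of the iron storage shell, was bright in both samples. Probe set 212788_x_at read 6051 untreated and 5166 with eltrombopag, a log2 ratio of -0.23. Probe set 213187_x_at read 3085 and 2018, a log2 ratio of -0.61. Both were lower with eltrombopag by less than 2-fold, and both carry the suffix _x_at. A probe set annotated to FTH1P5, a pseudogene of the ferritin heavy chain, read 2608 and 1902, a log2 ratio of -0.46; it is no member and was named after its values were seen. The brightest TFRC probe set exceeded the FTL probe sets by 1.93 and 2.31 in log2 ratio, differences that do not depend on a constant scale between the arrays. NCOA4, the ferritin autophagy receptor, went from 1722 to 1286 in its only probe set, a log2 ratio of -0.42.

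The sensors differed by less than 2-fold. ACO1, which is the cytosolic aconitase when it holds an iron-sulfur cluster and an iron regulatory protein when it does not, went from 105.0 to 80.4 in 207071_s_at, a log2 ratio of -0.38. Its other probe set, 237622_at, lay below the floor at 9.21 and 11.2. FBXL5, the ubiquitin ligase subunit, went from 524.9 to 457.7 in 209004_s_at and from 129.96 to 97.2 in 209005_at, log2 ratios of -0.20 and -0.42. All 6 probe sets of FTL, ACO1, FBXL5 and NCOA4 readable in both samples were lower with eltrombopag, at log2 ratios from -0.61 to -0.20. All 6 lay under the array's median of -0.10 and kept a ratio below 0 under the 3 other scalings. These genes were grouped with their values known, so the shared direction follows from the choice and is no test. Of all 20698 probe sets readable in both samples, 12656 had a ratio below 0 as deposited. The 6 lay between percentiles 10.4 and 40.2 of the 20698, so many others were as low or lower. The 14 members readable in both samples split into 7 above and 7 below the array's median.

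**Figure D2:**
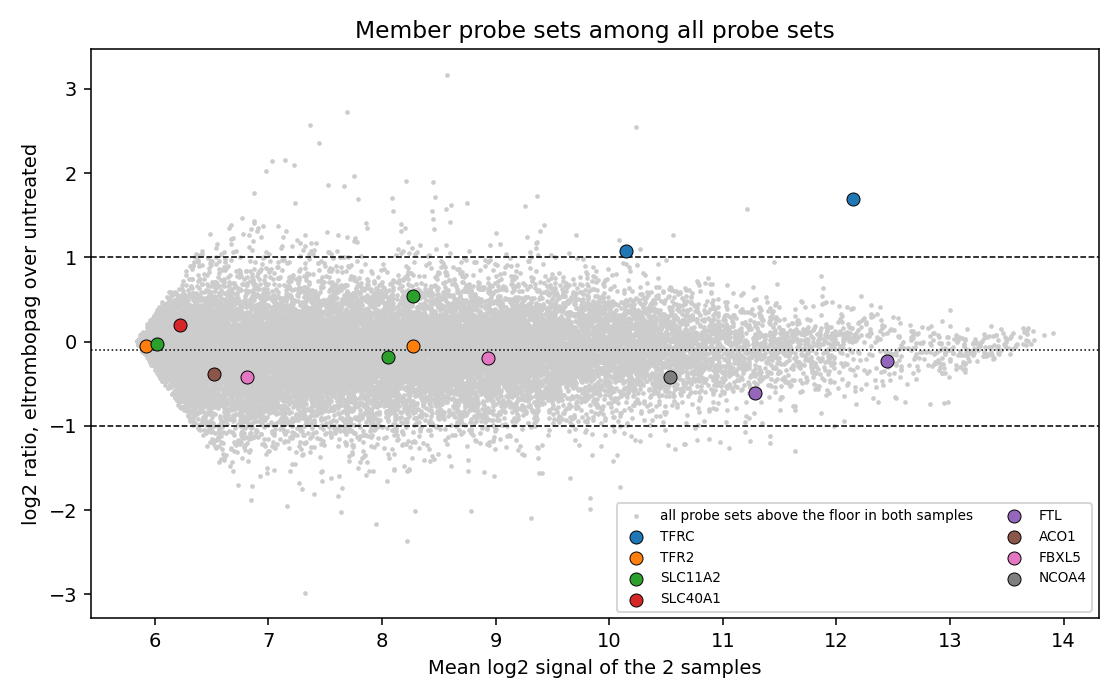
Log2 ratio of eltrombopag over untreated against mean log2 signal for the 20698 probe sets readable in both samples (grey) and the 14 such member probe sets (coloured by gene). Dashed lines mark 2-fold and the dotted line the median of -0.10; both coloured points of TFRC lie above the upper dashed line and no member lies below the lower line.

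Counted over the members, 2 of the 16 probe sets readable in at least 1 sample were higher by 2-fold or more and 0 were lower by as much, with no test at 1 sample per group. Of all 22994 such probe sets, 0.722% were higher and 2.15% lower by that margin. At 1.5-fold, the members gave 2 higher and 2 lower, and all probe sets 3.93% and 11.7%. Both higher probe sets belong to TFRC and are not independent. The median log2 ratio of the 14 members readable in both samples was -0.12, close to the -0.10 of all such probe sets; 7 lay above that median and 7 below. Without TFRC it was -0.19 over 12. The overall balance moved with the scale of the arrays: of probe sets past 2-fold, the share that was higher was 25.1% as deposited, 34.3% with median centring, 48.5% with lowess and 49.0% with quantile normalization, and the median of all probe sets readable in both samples moved from -0.10 to -0.05, 0.01 and 0.01 in the same order. The 2 higher TFRC probe sets stayed past 2-fold on each scale, at 1.70 to 1.81 and 1.08 to 1.17. The sign turned under another scaling for 3 of the 16 member probe sets, those of TFR2 and 203125_x_at of SLC11A2.

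**Figure D3:**
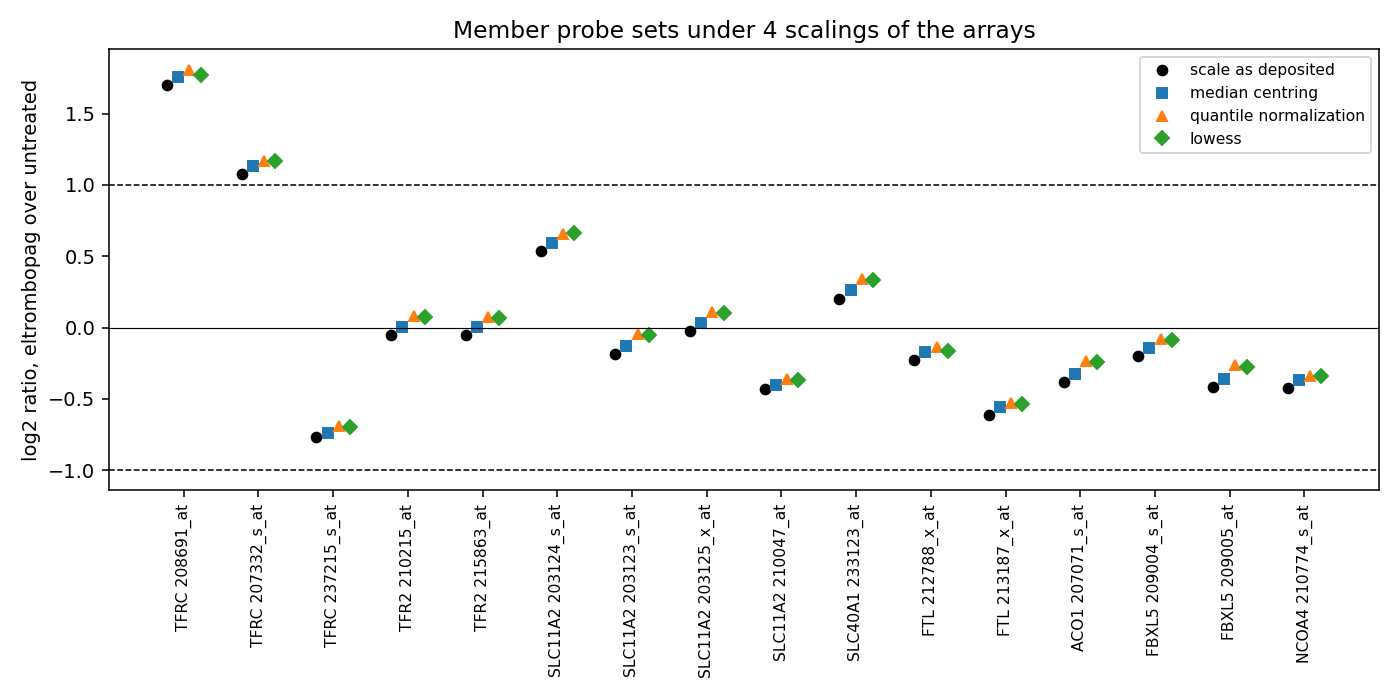
Log2 ratio of the 16 member probe sets readable in at least 1 sample, on the deposited scale and after median centring, quantile normalization and lowess. Dashed lines mark 2-fold; 208691_at and 207332_s_at of TFRC stay above the upper line on each scale, and the probe sets of TFR2 cross 0.

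Other iron genes were taken from 7 lists, of which 54 of 61 genes had a probe set. Of these, 35 were readable in at least 1 sample by their brightest probe set; 0 were higher by 2-fold or more and 1, SLC48A1, was lower, against 0.65% and 2.27% of all 10314 such genes. The median log2 ratio of the 30 readable in both samples was -0.14, beside -0.12 over all 9597 genes. SLC48A1, the transporter HRG1 that carries heme out of endosomes and lysosomes, went from 177.1 to 87.9 in 48106_at and from 144.4 to 60.01 in 218417_s_at. Both were lower, by 2.01-fold and 2.41-fold, but the first was under 2-fold after rescaling, with log2 ratios of -0.95, -0.87 and -0.86 after median centring, lowess and quantile normalization. The remaining probe set lay below the floor at 21.9 and 11.4.

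Counts of signs in these lists stand beside 6051 of all 9597 genes (63.1%) with a log2 ratio below 0 as deposited, and 51.4% to 57.3% under the other scalings. Among the 7 uptake genes readable in both samples, 6 had a log2 ratio below 0, and 4 to 5 under the other scalings. SNX3, a sorting nexin that recycles the transferrin receptor, had ratios from -0.99 to -0.58 in 4 of 4 probe sets, which all carry the suffix _x_at. SLC39A8, a metal importer, had -0.63 and -0.59 in the pair readable in both samples. Of 3 mitochondrial import genes, 2 had a ratio above 0 on each scale. SLC25A37, mitoferrin 1, which brings iron into mitochondria, was higher in 7 of 7 such probe sets, at 0.02 to 0.52, and its relative SLC25A28 in 2 of 2, at 0.21 and 0.36. None of these reached 2-fold.

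In heme uptake, export and breakdown, 2 of 5 genes had a ratio above 0, and 3 under the other scalings. BLVRA, biliverdin reductase, had log2 ratios of 0.66 and 0.61 in probe sets with the suffix _x_at, and 0.18 in 203771_s_at. HMOX1, the inducible heme oxygenase, lay below the floor at 21.0 and 14.7. Storage genes and iron chaperones had 3 of 8 above 0, or 4 after quantile normalization. GLRX3, a glutaredoxin, had -0.42 and -0.38 in _x_at probe sets and -0.24 in 207506_at. CISD2, an iron-sulfur protein of the endoplasmic reticulum, had -0.23 and -0.08. PCBP2, an iron chaperone, had -0.07 in its brightest probe set but 0.70 in another. No gene of the export and systemic list, which includes hepcidin (HAMP), were readable in both samples.

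Of 4 other genes on the array whose transcripts are reported to hold an iron-responsive element, 3 were readable in at least 1 sample and 2 in both. CDC14A, a phosphatase, had log2 ratios of -0.29 and 0.12, and CDC42BPA, a kinase, -0.02 and 0.33. EPAS1, which encodes HIF-2α and has a 5′ element, went from 54.4, below the floor, to 101.9, at least 1.79-fold higher, and was named after its values were seen. ALAS2 lay below the floor. Among partners of FBXL5 and factors that degrade TFRC transcript, 4 of 5 had a ratio below 0 on each scale. The ligase subunits RBX1 and CUL1 had -0.58 and -0.46, and SKP1 had -0.75 to -0.13 over 4 probe sets. RC3H1, roquin, which promotes decay of messenger RNA, had -0.30 in its brightest probe set, and its relative RC3H2 0.05.

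**Figure D4:**
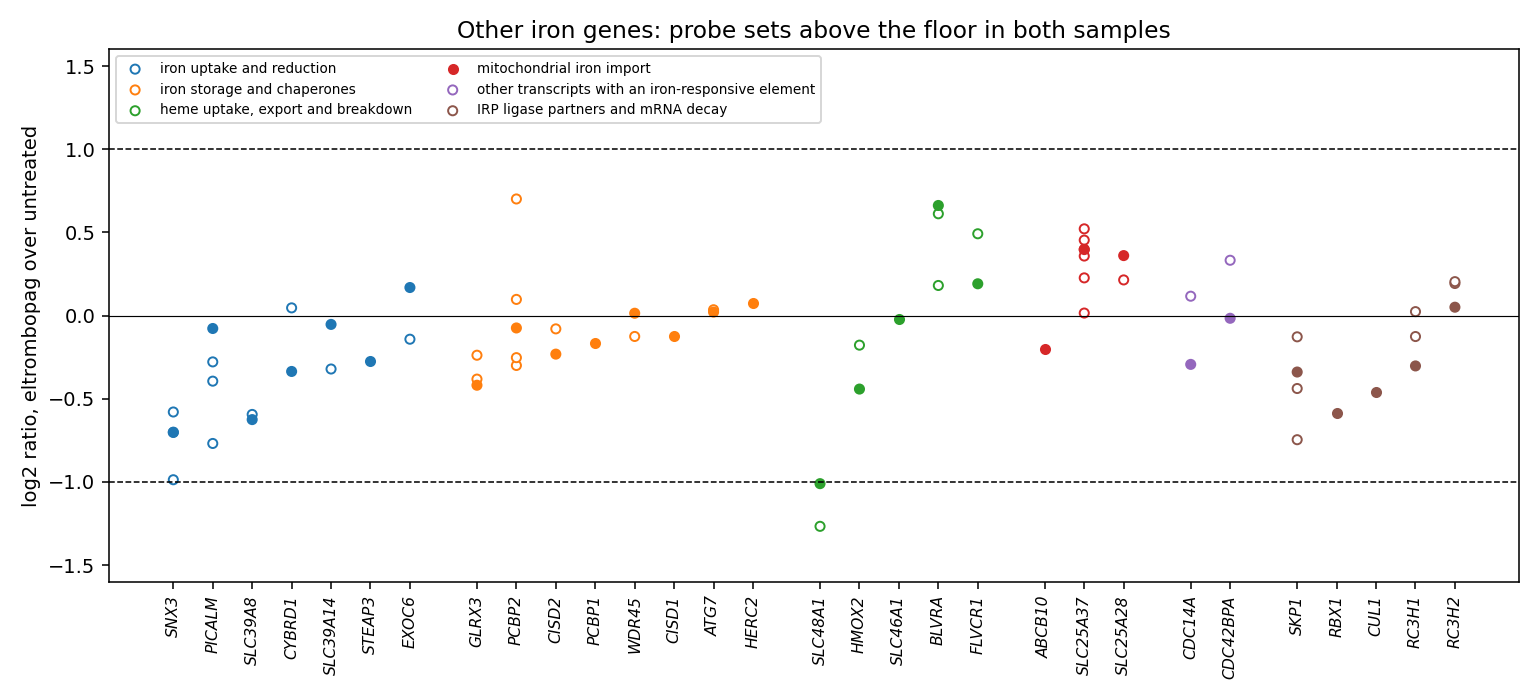
Log2 ratio of eltrombopag over untreated for probe sets readable in both samples of other iron genes, coloured by list; filled points are the brightest probe set of a gene and open points the others. Dashed lines mark 2-fold: SLC48A1 lies below the lower line, and no point lies above the upper line.

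Cell type markers were read from the same arrays, whose labels give the cell type as hematopoietic stem. By the brightest probe set, 9597 of all 19775 genes were readable in both samples. Of these 9597, 63.1% had a ratio below 0 as deposited, and 51.4% to 57.3% of readable genes did under the other scalings. At least 2-fold lower were 212 of the 9597 as deposited, and 119 to 168 genes under the other scalings. Of 6 stem cell markers, a list added after values were seen, only MECOM was readable, and CD34 and KIT lay below the floor in both samples. Of 14 promyelocyte markers on the array, 10 were readable in both samples, MYB and MPO (myeloperoxidase) among them, while ELANE, neutrophil elastase, lay below it in both. Of these 10, 8 were lower with eltrombopag by the brightest probe set (7 after quantile normalization). MPO is among the 8 at a log2 ratio of -0.08, but its other probe set, 203948_s_at, had 0.26. On each scale 2 were at least 2-fold lower, CEBPA, a granulocyte transcription factor, at -1.55 and CSF3R, the G-CSF receptor, at -1.17. The summed signal of the list was 10548 untreated and 10300 with eltrombopag, a sum in which MYB went from 4349 to 5855. Plasma cell genes, which an HL60 culture is not known for, were above the floor in 12 of 13, JCHAIN, XBP1 and MZB1 among them. All 12 were lower with eltrombopag by the brightest probe set (11 after quantile normalization), 6 of them at least 2-fold on each scale. The 6 were IRF4 at -2.37, TNFRSF17 at -2.10, SLAMF7 at -2.01, FKBP11 at -1.86, POU2AF1 at -1.56 and SDC1 at -1.27. Dimmer probe sets readable in both samples were less uniform. MZB1 was slightly higher in 221286_s_at, at 0.09, and SLAMF7 had only -0.39 in 219159_s_at. FKBP11 had -0.69 in 228308_at but -2.17 in 219118_at, and SDC1 had -1.24 in 201287_s_at. PRDM1, outside the 6 at -0.93, had -1.34 in 228964_at. The summed signal of the list went from 19587 to 11370, a sum in which JCHAIN went from 7972 to 4866. Erythroid markers, a lineage rich in transferrin receptor, had 1 of 8 readable in both samples, EPOR, and summed to 418.4 and 352.5. By the brightest probe set, HBB was readable untreated alone, at 84.2 and then 52.5. GATA1 was readable with eltrombopag alone, at 53.2 and then 71.4. Apart from EPOR, the sum is made of signals near or below the floor. Monocyte markers had 0 of 8, B cell markers 1 of 6 (with PAX5, readable untreated alone, at least 2.32-fold lower), T cell markers 1 of 6, and fibroblast and epithelial markers 2 of 8. The part of the plasma cell and promyelocyte genes in the TFRC difference was not tested, and fewer cells of a type and less transcript per cell cannot be told apart in bulk RNA.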

How the data were processed

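RNA from 1 untreated and 1 eltrombopag-treated HL60 sample was read on expression arrays. The authors deposited a linear signal intensity for each probe set and sample. The submitters' processing notes name MAS5; no version, scaling target or detection call was found in the labels. Intensities were used as deposited, with medians of 32.8 untreated and 31.5 with eltrombopag; the number of arrays limits the precision. Of 54613 probe sets, 41091 had 1 gene in the platform annotation, 1801 several and 11721 none; updating symbols through GRCh38.p14 gene identifiers changed 0.

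Ratios were computed in Python 3.11.15 on a floored log2 scale, and the counting was checked on simulated arrays with known changes, which is no test of the treatment; none was made. A gene was read from its probe set with the highest mean log2 signal. The text names every member, the 2-fold changed genes and the 2 largest changes among genes readable in both samples per list of other iron genes, up to 3 bright and the 2-fold changed markers per marker list, and the 3 genes nearest to TFRC in ratio; others are shown as further list members, chosen after values were seen. The members and lists were chosen with earlier results of these data known. Alternatives were median centring, quantile normalization, lowess (span 0.3), a floor at the 50th percentile, at the 75th or at a signal of 1, thresholds of 1.5-fold and 3-fold, omission of _x_at and _s_at probe sets, and the mean over probe sets.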

Additional observations from a re-analysis of the deposited data

How the results depend on the processing

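Of the 2 member probe sets at least 2-fold higher, 1 remained past a 3-fold threshold (208691_at of TFRC), and 1 (208691_at) was left when _x_at and _s_at probe sets were omitted. With no floor the count at least 2-fold higher was 3, with 240686_x_at of TFRC added. The count at least 2-fold lower went from 0 to 1 with the floor at the 50th percentile (237215_s_at of TFRC, -1.03), to 2 with no floor and to 2 at 1.5-fold. With the floor at the 50th percentile or none, the range between probe sets was 2.73 for TFRC, 1.21 for SLC11A2 and 0.52 for TFR2, and the median range over genes was 0.73 with no floor; these settings admit dimmer probe sets. The mean over probe sets gave 0.67 for TFRC and -0.03 for SLC11A2, and SLC11A2 was -0.43 without _x_at and _s_at probe sets. SLC48A1 was -0.05 with the floor at the 75th percentile, which lies above nearly all of its signal. The alternatives for SLC48A1, SLC25A37, SNX3, SLC39A8 and BLVRA were chosen after seeing the data. Of 249 single values under alternatives, 233 kept their side of the threshold without a change of sign larger than the median range between probe sets, 7 fell below 2-fold or the threshold tried, 7 passed it, and 2, both of SLC11A2, changed sign by more; no value past 2-fold reversed. Many of the 249 values could not change, because a floor leaves the ratio of a bright probe set as it was. Most gene values also repeat the value of the brightest probe set. The count is therefore no measure of how firm the results are. No paired analysis was possible because each group holds 1 sample. Signal near the floor limits SLC40A1, ACO1 and the dim probe sets of TFRC.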
